A study of Mus musculus with 16 samples.

Results

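The genes described here are the Wnt ligands, the proteins that secrete, bind and antagonise them, and the components and feedback targets of the beta-catenin branch of the pathway. They were taken by gene name from the protein coding genes of the deposited count tables, which gave 64 genes of 54532 in all. They comprise 19 Wnt ligands, 2 genes of ligand secretion, 10 Frizzled receptors, 2 LRP co-receptors, 10 secreted antagonists, 7 genes of the R-spondin axis, 8 genes of cytoplasmic transduction, 4 TCF/LEF factors and 2 further target genes. The libraries came from primary hippocampal cells of newborn wild type (WT) mice and of Shank3∆11(−/−) (KO) mice, both on a C57BL/6 background. The library labels give the age of the pups as postnatal day 1 to 2. The age range in the study's text begins earlier, and the labels do not settle which holds. The KO mice lack some isoforms of SHANK3, a scaffold protein of excitatory synapses, and keep others. Cultures of each genotype received Li at 0.1 mmol/l or water (Veh) from day in vitro 9 for 5 days, so that the groups were WTVeh, WTLi, KOVeh and KOLi with 4 libraries each. The labels give 14 as the day of harvest in the first library and a number that runs on to 29 in the last, and day 14 is taken from the study's methods. Hippocampi of several pups were pooled for a preparation after the meninges had been removed. Libraries of 1 genotype that share a replicate number were taken as the Veh and the Li dish of the same culture, which the labels do not state outright.

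Wnt proteins are lipid-modified by Porcn, carried to the cell surface by Wls, and bind a Frizzled receptor together with Lrp5 or Lrp6. Binding recruits a Dishevelled protein (Dvl1, Dvl2, Dvl3) and stalls the complex of Axin, Apc and the kinase GSK3 that otherwise marks beta-catenin, the product of Ctnnb1, for degradation. Stabilised beta-catenin enters the nucleus and acts through TCF/LEF factors, whose targets include the pathway's own inhibitors Axin2, Nkd1, Notum, Rnf43 and Znrf3. Li inhibits GSK3, and the pathway governs the growth and patterning of the hippocampus and the proliferation of its progenitors. GSK3 acts on beta-catenin as a protein, so that the mRNA level of a component does not give the activity of the pathway.

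RefSeq promoter windows of 300 bases, 250 before and 50 after an annotated start, were at hand for 41 of the 64 genes on the build of the files (GRCm38.p6). They were searched for the TCF/LEF motif on both strands, written as CTTTG with 2 further bases, each A or T, which makes 4 forms. A form was found in 8 of 51 windows of these genes (15.7%), against 16.9% of all 32851 windows in the reference. The 8 genes were Dkk1, Fzd7, Lef1, Sp5, Tcf7l2, Wnt11, Wnt3 and Wnt5b, and for Lef1, Tcf7l2, Wnt11 and Wnt5b the form lay at only 1 of the annotated starts. The windows of Axin2, Nkd1, Tcf7, Wls, Rnf43 and Ctnnb1 held none of the 4 forms. Windows of 4 starts are shown because 3 of the genes, Wls, Fzd7 and Tcf7l2, were called between genotypes below, and because Sp5, a zinc finger factor induced by beta-catenin, held 2 of the forms. All are on the plus strand of their chromosomes and are written 5′ to 3′, with capitals for a motif form on either strand. The Wls window is chr3:159839400-159839699, the Fzd7 window chr1:59481897-59482196, the window of the internal Tcf7l2 start chr19:55895071-55895370 and the Sp5 window chr2:70474673-70474972.
Wls: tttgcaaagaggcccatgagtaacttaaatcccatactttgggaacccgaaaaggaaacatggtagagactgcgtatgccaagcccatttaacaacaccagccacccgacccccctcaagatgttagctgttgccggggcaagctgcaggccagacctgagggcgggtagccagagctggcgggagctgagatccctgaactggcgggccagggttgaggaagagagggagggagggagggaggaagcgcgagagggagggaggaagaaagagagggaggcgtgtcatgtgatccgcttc
Fzd7: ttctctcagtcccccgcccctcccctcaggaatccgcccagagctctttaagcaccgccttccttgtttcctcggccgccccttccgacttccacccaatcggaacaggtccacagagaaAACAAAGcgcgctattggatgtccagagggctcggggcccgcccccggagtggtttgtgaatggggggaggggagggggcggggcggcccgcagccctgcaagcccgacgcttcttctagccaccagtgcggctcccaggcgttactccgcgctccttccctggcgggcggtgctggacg
Tcf7l2: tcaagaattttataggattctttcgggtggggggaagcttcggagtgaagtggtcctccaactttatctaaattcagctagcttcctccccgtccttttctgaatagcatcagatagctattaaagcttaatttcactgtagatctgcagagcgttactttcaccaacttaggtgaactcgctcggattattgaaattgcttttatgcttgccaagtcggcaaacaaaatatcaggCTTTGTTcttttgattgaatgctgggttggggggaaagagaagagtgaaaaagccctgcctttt
Sp5: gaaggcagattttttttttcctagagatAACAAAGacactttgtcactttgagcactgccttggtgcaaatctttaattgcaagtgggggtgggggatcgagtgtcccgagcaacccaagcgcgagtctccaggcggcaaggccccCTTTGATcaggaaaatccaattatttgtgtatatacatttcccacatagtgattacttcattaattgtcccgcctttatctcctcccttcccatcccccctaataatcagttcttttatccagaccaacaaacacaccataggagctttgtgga
In Fzd7 the form begins 130 bases before the start, in Tcf7l2 14 before it, and in Sp5 222 and 104 before it. A match of letters is a description of the window and not evidence of binding.

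Total counts per library ran from 16123067 to 35188300. The tests used 14783 genes that passed the filter on low counts, and values of single genes are read counts scaled to a common library total (CPM) after scaling by TMM factors. Shank3 in KO libraries stood at 0.367 to 0.404 times its level in the WT library of the same number and treatment in replicates 1, 3 and 4. In replicate 2 the ratio was 0.956 in Veh and 0.845 in Li, so that those KO samples are called the libraries labelled KO replicate 2, and values are also given without replicate 2. Neuronal markers (8 genes, such as Rbfox3 and Map2) summed to 3384 to 6042 CPM and astrocyte markers (8 genes, such as Gfap and Aqp4) to 4251 to 9448 CPM over the 16 libraries. Of the 12 marker lists checked, none held a gene at 0 in all libraries of a group.

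The level of the pathway genes, per kilobase of gene model (RPKM), spanned several orders of magnitude. Ctnnb1 was the highest by far at a mean of 129 RPKM over the 16 libraries, with a range from 118 to 145. The tumour suppressor Apc followed at 37.5, the secreted glycoprotein Dkk3 at 28.3, Dvl1 at 23 and Porcn at 18.7 RPKM. Among ligands, Wnt7b (18.3 RPKM) stood above Wnt4 (6.84), Wnt5a (6.59) and Wnt7a (6.06), whose ranges over libraries overlapped each other. Among receptors, Fzd3 (16.4 RPKM) and Fzd1 (11) led, and Fzd5 (0.675) and Fzd10 (0.479) came last. The TCF/LEF factors were led by Tcf7l1 (5.04 RPKM), the factor known mainly as a repressor, and by Tcf7 (4.50), whose range over libraries spanned that of Tcf7l1. Lef1 was at 0.111 RPKM, so that its values and those of Sp5, Notum and Wnt10b rest on few counts. The filter on low counts removed 10 genes and left 54 to be tested. These 10 were the ligands Wnt3, Wnt3a, Wnt8a, Wnt9b, Wnt10a and Wnt16 and the antagonists Dkk1, Dkk2, Dkk4 and Sfrp5, none of which exceeded 35 counts in any library. Dkk4 had 0 counts in 15 of 16 libraries, Dkk1 in 13 and Wnt8a in 12, which at this depth limits their level without showing absence.

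**Figure D1:**
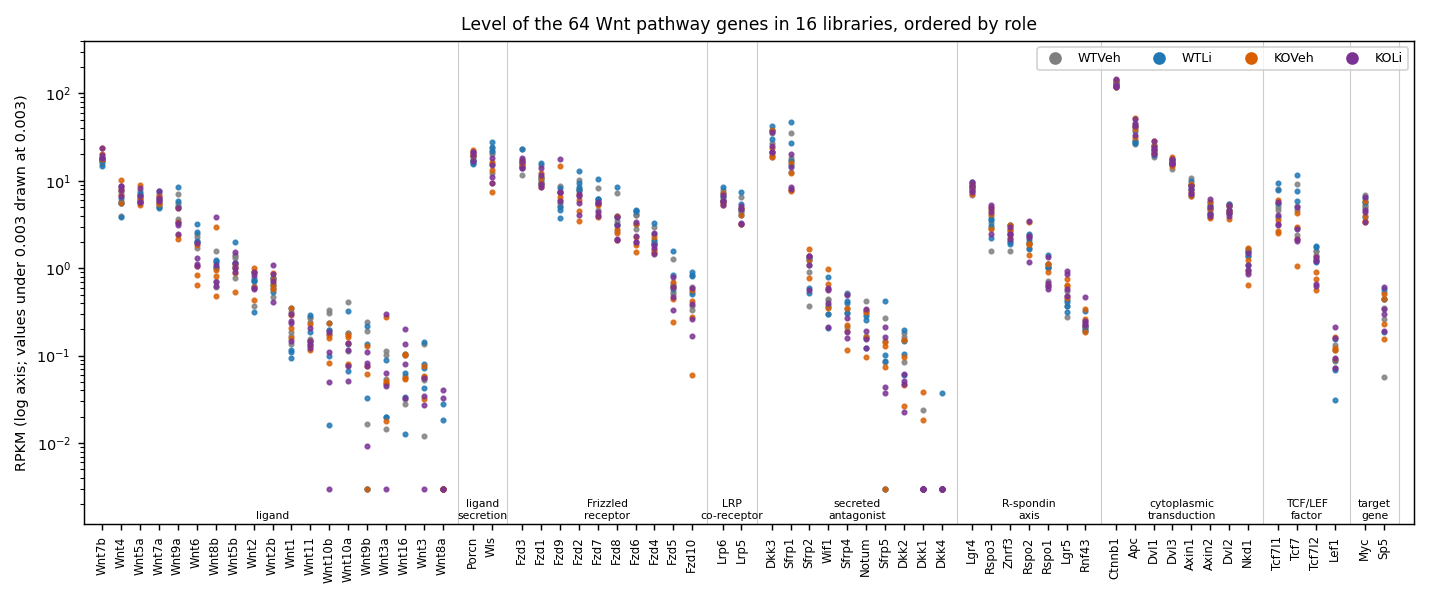
Level of the 64 genes in RPKM on a log axis, each point 1 library coloured by group, with genes ordered by role and then by mean level; values under 0.003, zeros included, are drawn at 0.003. Ctnnb1 lies above every other gene, at 118 to 145 RPKM, and 10 ligands and antagonists at the low end were not tested.

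The first comparison asks how the pathway genes differ between genotypes in vehicle. In KOVeh, Wls, the receptors Fzd2 and Fzd6 and the factor Tcf7l2 were lower than in WTVeh, with log2 differences from -0.80 to -0.72, and the R-spondin Rspo3 was higher by 0.55. That made 4 genes called lower and 1 called higher of 54, at an adjusted p under 0.01 and a fold above 1.2. Over all 14783 genes, 3.42% were called lower and 2.08% higher by the same rule. These were 506 and 307 genes, and without TMM factors 603 and 205. The median difference of the 54 genes was -0.09 against -0.01 for all genes, and 32 of the 54 (59.3%) were below 0 against 51.2% of all genes. In bulk libraries, fewer cells of a type and less RNA per cell cannot be told apart.

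Wls (chr3:159839672-159938664) escorts every lipid-modified Wnt to the cell surface. It was at 189.8, 178, 107 and 207 CPM in WTVeh replicates 1 to 4 and at 83.1, 145, 65.3 and 116 CPM in KOVeh. With Li, it was at 195, 214, 135 and 243 CPM in WTLi and at 96.5, 160, 83.6 and 133 CPM in KOLi. Replicate 3 was low in both genotypes, so that the groups overlapped, but KO was below WT in all 4 pairs of the same number under either treatment. The log2 difference was -0.76 ± 0.12 (SE, adjusted p = 0.00293) in Veh and -0.74 ± 0.12 (SE, adjusted p = 0.00287) in Li, both called. Permuting the 8 culture means of Wls, taken over Veh and Li, gave a two-sided exact p of 0.0857, where 0.0286 is the smallest that 4 against 4 allows. Of the other genes called between genotypes, it gave 0.0286 for Fzd2, 0.0571 for Fzd6 and Lgr5 and 0.0857 for Tcf7l2. It gave 0.114 for Fzd7 and Sfrp1 and 0.171 for Rspo3. These exact p-values are unadjusted. Porcn, the acyltransferase that acts before Wls, was at 51.7, 50.1, 57.5 and 52.1 CPM in WTVeh and 57.4, 58.9, 62.5 and 66.9 CPM in KOVeh. With Li it was at 50, 46.3, 56.2 and 48.2 CPM in WTLi and 63.6, 51.2, 64.2 and 59.8 CPM in KOLi. KO was the higher in 4 of 4 pairs of each treatment, by 0.22 ± 0.06 (SE, adjusted p = 0.0321) in Veh and 0.25 ± 0.06 (SE, adjusted p = 0.0186) in Li, and was called in neither.

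Frizzled receptors were below WT for 8 of 10 genes in Veh and for 9 of 10 in Li, with medians of -0.43 and -0.60. Fzd2 (chr11:102604396-102608058) was at 29.9, 29.2, 28.1 and 36.9 CPM in WTVeh and at 16.4, 25.4, 12.8 and 22.3 CPM in KOVeh. In the Li groups it was at 28.5, 34.3, 30.7 and 47.1 CPM in WTLi and at 20.4, 26, 15 and 24.4 CPM in KOLi. No KO library reached the lowest WT library of its treatment. The exact permutation p was 0.0286, the smallest possible, in Veh, in Li and over culture means, which all come from the same cultures. It is unadjusted, and Fzd2 was tested because it had been called in these libraries. Fzd2 differed by -0.72 ± 0.13 (SE, adjusted p = 0.00474) in Veh and -0.72 ± 0.13 (SE, adjusted p = 0.00465) in Li.

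Fzd6 (chr15:39006034-39038188), a receptor known for its part in planar cell polarity, was at 19.4, 19.9, 13.6 and 19.8 CPM in WTVeh and at 10.9, 15.5, 7.44 and 8.90 CPM in KOVeh. Its levels were 21.9, 22.4, 15.5 and 21.6 CPM in WTLi and 9.50, 16.5, 11.4 and 9.67 CPM in KOLi. WT replicate 3 and the libraries labelled KO replicate 2 met in the middle, which is where the groups overlapped. The difference was -0.80 ± 0.16 (SE, adjusted p = 0.00592) in Veh and -0.80 ± 0.16 (SE, adjusted p = 0.00571) in Li, called in both. Fzd7 (chr1:59482424-59486955), a receptor of progenitor cells, was called under Li only, at -0.51 ± 0.11 (SE, adjusted p = 0.00988), against -0.40 ± 0.11 (SE, adjusted p = 0.0281) in Veh. It was at 28, 25.8, 21.2 and 37.6 CPM in WTVeh and 18.5, 24.5, 17.3 and 24.1 CPM in KOVeh, and at 28.3, 28, 24.4 and 47.7 CPM in WTLi and 19.7, 25.1, 17.7 and 25.9 CPM in KOLi. Its mean was 32.1 ± 10.5 CPM (SD, n = 4) in WTLi, where replicate 4 stood apart at 47.7 CPM, and 22.1 ± 4.01 CPM in KOLi. The Li effect on Fzd7 was not shown to differ between genotypes (interaction -0.11 ± 0.09 (SE, adjusted p = 0.999)). Fzd9 was the only Frizzled gene above 0 in both comparisons, at 0.45 in Veh and 0.76 in Li, and was called in neither (adjusted p = 0.336 and 0.106). Of the co-receptors, Lrp5 was at -0.39 ± 0.12 (SE, adjusted p = 0.0417) and Lrp6 at -0.12 ± 0.12 (SE, adjusted p = 0.513) in Veh, and neither was called.

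**Figure D2:**
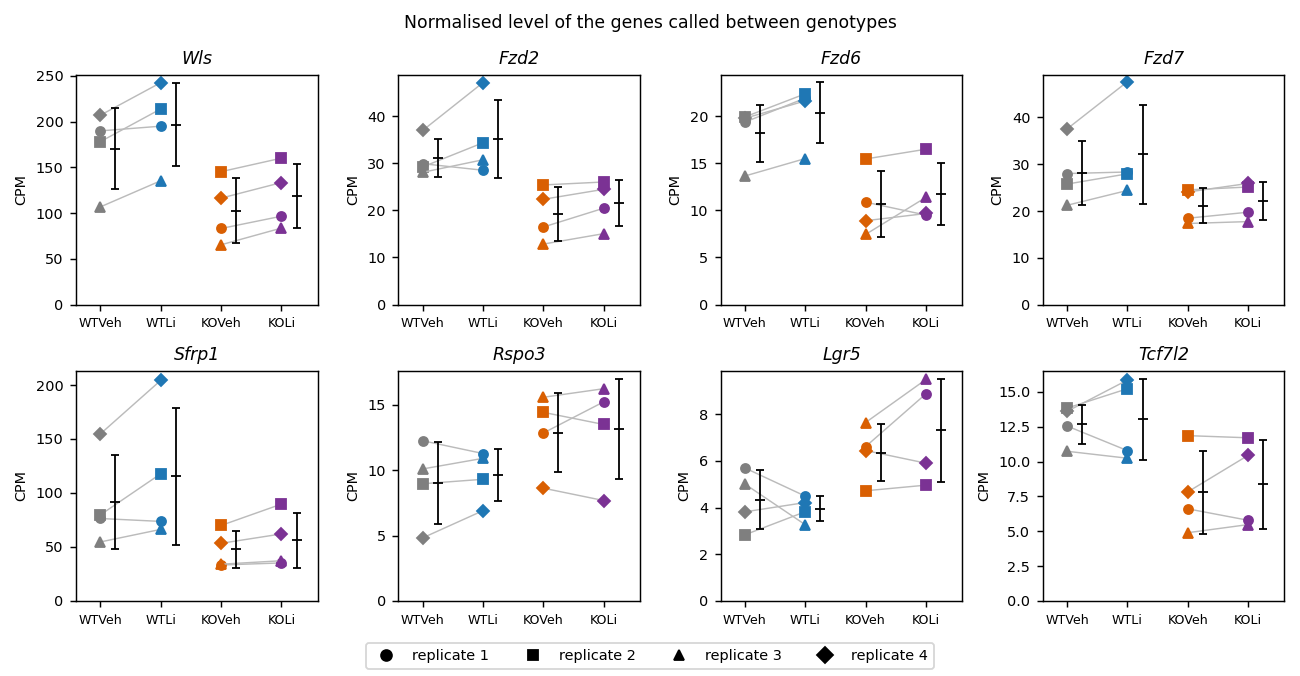
CPM of the 8 genes called in either genotype comparison, 1 panel a gene, with grey lines joining the Veh and Li library of a culture, symbols for the replicate and black bars for the mean ± SD of the 4 libraries. Fzd2 does not overlap between genotypes within a treatment, and the square of replicate 2 is the highest KO library under either treatment for Wls, Fzd2, Fzd6, Sfrp1 and Tcf7l2.

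Of the 6 tested secreted antagonists taken by gene name, Sfrp1 alone was called, lower in KO and in Li only. Sfrp1 (chr8:23411502-23449632), which binds Wnts outside the cell, was at 76.4, 79.8, 54.7 and 155 CPM in WTVeh and at 33.3, 69.9, 34 and 53.4 CPM in KOVeh. Its WTLi libraries were at 73.7, 118, 66.3 and 204 CPM and its KOLi libraries at 35.2, 89.7, 37.3 and 62.1 CPM. Replicate 4 of WT was the highest under either treatment. The difference of -0.997 ± 0.21 (SE, adjusted p = 0.00847) in Li was called and that of -0.92 ± 0.21 (SE, adjusted p = 0.0129) in Veh was not, with KO lower in 4 of 4 pairs in both. The most abundant of the others was Dkk3. It was at 119, 91.2, 62.6 and 124 CPM in WTVeh and 79.5, 127, 66.6 and 62.3 CPM in KOVeh, and at 127, 100.2, 72.1 and 142 CPM in WTLi and 71.1, 120.4, 83.7 and 71.7 CPM in KOLi. KO was lower in replicates 1 and 4 and higher in 2 and 3 under either treatment, and the difference in Veh was -0.25 ± 0.24 (SE, adjusted p = 0.489).

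Rspo3 and Lgr5, a ligand and a receptor of the axis that keeps Frizzled proteins on the surface, were the genes called higher. Rspo3 (chr10:29452416-29535867) was at 12.2, 8.96, 10.1 and 4.82 CPM in WTVeh and 12.8, 14.4, 15.6 and 8.62 CPM in KOVeh. It was at 11.3, 9.30, 10.9 and 6.90 CPM in WTLi and 15.2, 13.5, 16.2 and 7.68 CPM in KOLi. Replicate 4 was the lowest of its group throughout, which spread each group over more than the difference between them. Rspo3 differed by 0.55 ± 0.12 (SE, adjusted p = 0.00974) in Veh, which was called, and by 0.42 ± 0.12 (SE, adjusted p = 0.0275) in Li, which was not. Lgr5 (chr10:115450311-115587780), a stem cell receptor, was at 5.69, 2.83, 5.01 and 3.82 CPM in WTVeh and 6.61, 4.72, 7.64 and 6.44 CPM in KOVeh. With Li the values were 4.49, 3.82, 3.27 and 4.21 CPM in WTLi and 8.87, 4.96, 9.48 and 5.90 CPM in KOLi, without overlap. It was called in Li, at 0.83 ± 0.18 (SE, adjusted p = 0.00825), and not in Veh, at 0.57 ± 0.17 (SE, adjusted p = 0.0374). Lgr4, a receptor for R-spondins like Lgr5 and the more abundant, was at -0.01 ± 0.09 (SE, adjusted p = 0.965) in Veh.

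Of the TCF/LEF factors, Tcf7l2 (chr19:55741810-55933654) was at 12.5, 13.8, 10.7 and 13.6 CPM in WTVeh and at 6.61, 11.9, 4.90 and 7.83 CPM in KOVeh. In WTLi it was at 10.8, 15.2, 10.2 and 15.8 CPM and in KOLi at 5.79, 11.7, 5.48 and 10.4 CPM. Only the library labelled KO replicate 2 came within the WT range in Veh. Tcf7l2 was called in Veh, at -0.76 ± 0.15 (SE, adjusted p = 0.00656), and not in Li, at -0.68 ± 0.15 (SE, adjusted p = 0.0103). The largest difference in Veh among all 54 genes was that of Tcf7, a factor that is itself a target of beta-catenin. It was at 13.6, 12.1, 6.26 and 24 CPM in WTVeh and 5.67, 11.3, 2.79 and 7.79 CPM in KOVeh, and its replicates spread so far that -1.05 ± 0.28 (SE, adjusted p = 0.0212) was not called. In WTLi Tcf7 was at 15.5, 20, 7.64 and 30.9 CPM and in KOLi at 5.35, 13, 5.69 and 7.36 CPM, with KO lower in 4 of 4 pairs of each treatment. Tcf7l1 was at -0.69 ± 0.19 (SE, adjusted p = 0.0245), and Lef1 at 0.28 ± 0.40 (SE, adjusted p = 0.655). Lef1 was under 2 CPM in every library, at 1.16, 1.02, 0.767 and 0.631 CPM in WTVeh and 1.08, 0.809, 1.03 and 1.45 CPM in KOVeh, and at 1.37, 0.609, 0.277 and 0.778 CPM in WTLi and 0.818, 0.634, 1.39 and 1.85 CPM in KOLi.

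The components of cytoplasmic transduction differed little. Ctnnb1 was at 683, 698, 620.5 and 681 CPM in WTVeh and at 629, 733, 614 and 630.5 CPM in KOVeh, a difference of -0.04 ± 0.05 (SE, adjusted p = 0.588). With Li it was at 658, 741, 635 and 713 CPM in WTLi and 615, 753, 631 and 654 CPM in KOLi, so that the groups overlapped under either treatment. The other 7 genes of this role ranged from -0.31 for Nkd1 to 0.36 for Apc, and 0 of 8 were called. Apc reached 730.1 CPM in WTVeh replicate 3 against 413 to 458 CPM in the other WTVeh libraries, and at 617, 500.1, 672 and 815 CPM in KOVeh its difference was 0.36 ± 0.17 (SE, adjusted p = 0.146). It was at 441, 581, 651 and 429 CPM in WTLi and 662, 533, 697 and 798 CPM in KOLi. Dvl1, a Dishevelled gene, was at 93.6, 103, 112 and 129 CPM in WTVeh and 124, 105, 114 and 143 CPM in KOVeh, and at 104, 97.6, 115 and 124 CPM in WTLi and 121, 102, 112 and 142 CPM in KOLi. Its difference in Veh was 0.15 ± 0.07 (SE, adjusted p = 0.139).

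The genes that beta-catenin induces as feedback gave no common direction between genotypes. Axin2, the most widely used reporter of the pathway, was at 26.7, 22.8, 24.5 and 28.7 CPM in WTVeh and 21.1, 26.5, 20.4 and 31.9 CPM in KOVeh. KO was below WT in replicates 1 and 3 and above it in replicates 2 and 4, and the difference was -0.06 ± 0.12 (SE, adjusted p = 0.774). Nkd1, an inhibitor that binds Dishevelled, was at 6.33, 6.87, 4.36 and 7.26 CPM in WTVeh and 2.91, 5.66, 4.11 and 7.69 CPM in KOVeh, and differed by -0.31 ± 0.20 (SE, adjusted p = 0.285). Sp5 was at 1.12, 0.557, 0.121 and 0.746 CPM in WTVeh and 0.328, 0.943, 0.49 and 1.07 CPM in KOVeh, with a difference of 0.23 ± 0.48 (SE, adjusted p = 0.771). Notum, which strips the lipid from Wnts, was at 1.01, 0.789, 0.727 and 0.402 CPM in WTVeh and 0.234, 0.809, 0.392 and 0.762 CPM in KOVeh, with a difference of -0.48 ± 0.42 (SE, adjusted p = 0.455). These low genes overlapped between the genotypes. Rnf43 and Znrf3 encode ligases that remove Frizzled proteins from the surface. Rnf43 was at 1.31, 1.30, 1.65 and 1.38 CPM in WTVeh and 1.73, 2.25, 1.22 and 1.45 CPM in KOVeh, a difference of 0.19 ± 0.22 (SE, adjusted p = 0.585). Znrf3 was at 16.1, 12.4, 19 and 24.8 CPM in WTVeh and 20.4, 22.1, 17.5 and 24.5 CPM in KOVeh, a difference of 0.24 ± 0.14 (SE, adjusted p = 0.236). None of these 6 genes was called under Li either, and neither was Myc, at -0.43 ± 0.16 (SE, adjusted p = 0.0668) in Veh and -0.21 ± 0.16 (SE, adjusted p = 0.352) in Li.

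Among the 13 tested ligands 0 were called in either comparison. The lowest differences in Veh were those of Wnt6, at -0.97 ± 0.26 (SE, adjusted p = 0.0238), and Wnt9a, at -0.78 ± 0.19 (SE, adjusted p = 0.0165). Wnt7b, the most abundant ligand, was at 0.22 ± 0.07 (SE, adjusted p = 0.0421) in Veh and 0.26 ± 0.07 (SE, adjusted p = 0.021) in Li. Wnt4 stood at 0.27 ± 0.15 (SE, adjusted p = 0.213) in Veh and 0.61 ± 0.15 (SE, adjusted p = 0.0149) in Li, and Wnt5a at 0.004 ± 0.14 (SE, adjusted p = 0.99) in Veh.

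**Figure D3:**
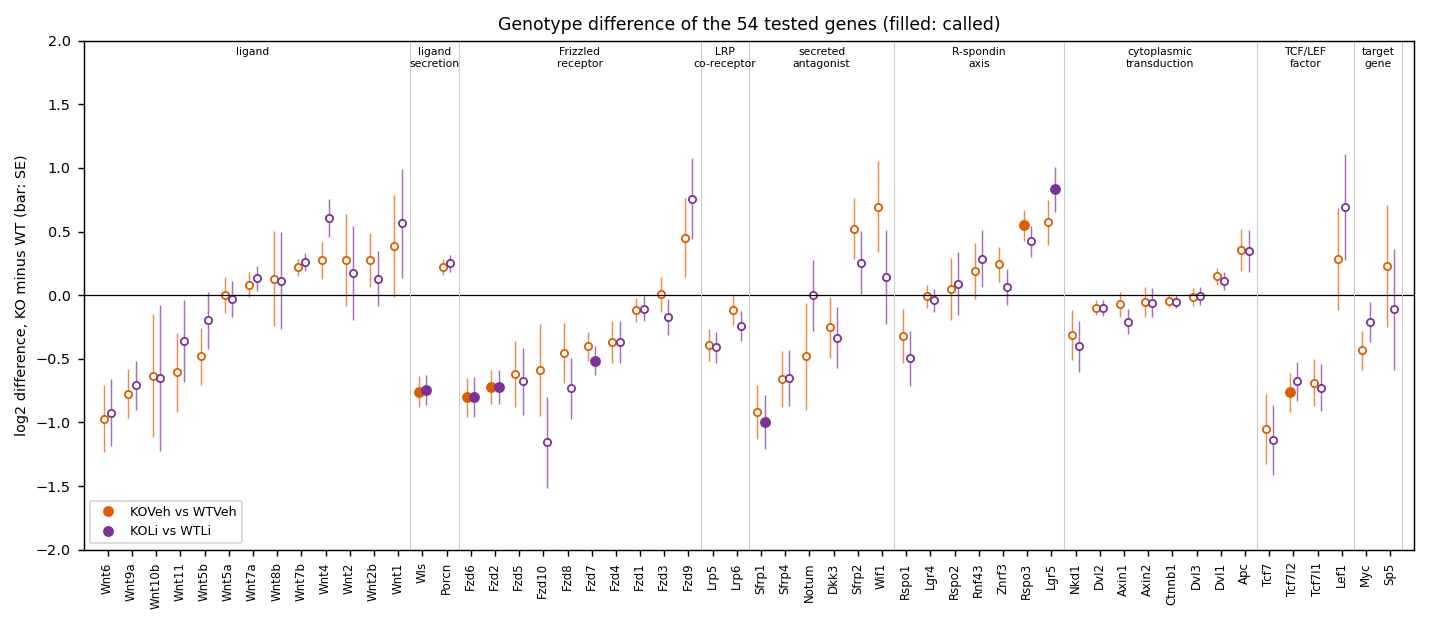
Log2 difference between KO and WT of the 54 tested genes in Veh (orange) and in Li (purple), by role, with bars of 1 SE from edgeR's quasi-likelihood fit and filled points for called genes. Wls, Fzd2 and Fzd6 are filled in both comparisons, Tcf7l2 and Rspo3 in Veh only, and Fzd7, Sfrp1 and Lgr5 in Li only, while Ctnnb1 and the Dvl genes lie near 0.

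With Li on both sides, 5 genes were called lower (Wls, Fzd2, Fzd6, Fzd7 and Sfrp1) and 1 higher (Lgr5) of 54, where 3.6% and 2.76% of all genes were called. These were 532 and 408 genes, and without TMM factors 645 and 255. Both comparisons use cultures of the same preparations, so that they are not independent of each other. In the replicate 2 pair, in which Shank3 was at 0.956 times WT in Veh, the mean difference over Veh and Li was -0.36 for Wls, -0.30 for Fzd2, -0.40 for Fzd6 and -0.30 for Tcf7l2. The mean over pairs 1, 3 and 4 was -0.88, -0.86, -0.94 and -0.87 for the same genes. Fitted to replicates 1, 3 and 4 only, 11 of 55 tested pathway genes were called lower and 0 higher in Veh, and 11 lower and 1 higher in Li. Calls over all 14866 genes of that fit rose too, to 1119 lower and 528 higher in Veh and to 1117 and 641 in Li. For Rspo3, pair 2 differed by 0.61 and the other pairs by 0.44.

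Of the 12 marker lists, that of progenitors held the most genes called lower. Progenitor markers (8 genes, among them Nes, Sox2 and Mki67) summed to 970 to 2829 CPM in WTVeh and to 351 to 1520 CPM in KOVeh, and 4 of 8 were called lower in each treatment. In each treatment 7 of 8 were below 0, and the highest marker was at 0.75 in Veh and 0.95 in Li. Ependymal markers (8 genes, Foxj1 among them) were below 0 for 8 of 8 with a median of -1.24 in Veh, and summed to 144 to 305 CPM in WTVeh and to 61.5 to 319 CPM in KOVeh. Astrocyte markers had a median of -0.36 in Veh, with 6 of 8 below 0, 0 called lower and 1 called higher, and their sum differed by -0.57 to 0.04 over the 4 replicates. Meningeal fibroblast markers, 12 genes that include Col1a1, were called lower for 2 of 12 and summed to 1617 to 1712 CPM in WTVeh and to 1166 to 1380 CPM in KOVeh. Oligodendrocyte markers were below 0 for 7 of 7 with 1 called, and microglial markers for 8 of 8 with 0 called. The microglial sum differed by -2.17 to 0.59 and was higher in KO in replicates 2 and 3. Neuronal markers were above 0 for 8 of 8, with 2 called higher. By replicate, the progenitor sum differed by -1.52, -0.65, -1.47 and -1.78 on the log2 scale between KOVeh and WTVeh. The part of these cell types in the differences of the Wnt genes was not tested.

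The calls depend on treating the replicate number as a block and on taking the spread from all 16 libraries. That fit counts the Veh and the Li library of a culture as independent. With the block kept but only the compared groups fitted, 0 pathway genes were called in either comparison. The calls over all genes in that fit are not given here, so that this 0 is not by itself a result about the pathway genes. Without the replicate block 0 of 54 genes were called in either comparison, as were 0 of all 14783 genes. In Veh, the count was 0 without WTVeh replicate 1, KOVeh replicate 3 or KOVeh replicate 4, 1 without KOVeh replicate 1, WTVeh replicate 3 or WTVeh replicate 4, 3 without WTLi replicate 1 or 3, and 8 without WTVeh replicate 2. In Li, it was 0 without KOLi replicate 1, KOLi replicate 4, WTLi replicate 3 or WTLi replicate 4, 2 without WTLi replicate 1 or KOLi replicate 3, and 3 without WTVeh replicate 3 or KOVeh replicate 3. The adjustment runs over all tested genes, so that these counts depend on the calls over all genes in each fit. Those are not given here, and a loss particular to the pathway genes cannot be told from a general one. Through the 16 fits without 1 library Wls in Veh kept a difference from -0.86 to -0.62, with an adjusted p of at most 0.0141. The call of Wls was lost without WTVeh replicate 1 or KOVeh replicates 1, 3 or 4, those of Fzd2 and Fzd6 without replicate 1, 3 or 4 of WTVeh or KOVeh, that of Tcf7l2 in 8 of 16 fits and that of Rspo3 in 14. In Li, the call of Sfrp1 was lost in 11 of 16 fits, that of Fzd7 in 11 and that of Lgr5 in 13.

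The next comparison asks what Li did within cultures. It set each Li library against the Veh library of the same genotype and number, over 8 cultures. Of the 54 genes 0 were called, as were 0 of all 14783 (0%), and the smallest adjusted p of any tested gene was 0.0144. DESeq2 called 0 of the 54 and 14 of all genes, all higher, and edgeR with genes removed only at 0 counts called 0 of 64 pathway genes and, over all 23555 genes, 98 higher and 5 lower. At an unadjusted p under 0.05 there were 14 of the 54 genes (25.9%), against 2086 of all genes (14.1%). The count was 7 without WTVeh replicate 4 (1444 of all genes) or WTLi replicate 4 (1443), 8 without KOLi replicate 3 (1578) and 9 without KOVeh replicate 3 (1544). It was 2 (568 of all genes) with genotype and a replicate block in place of the culture block. The differences were small and mostly upward, with 42 of 54 genes above 0, a median of 0.06 for the 54 and of 0.00033 for all genes, and 49.9% of all genes below 0. In single cultures, between 25 and 38 of the 54 genes were higher with Li. The share of all genes that was higher lay between 46.5% and 53.2%. Culture 3 of WT and the culture labelled KO 2 had the lowest counts, 25 and 27 of 54, and KO culture 3 the highest.

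Wls had the smallest p of the 54 genes. With Li it was higher in 8 of 8 cultures, by 0.04 in WT culture 1 and by 0.14 to 0.36 in the other 7, from the CPM given above. The fitted difference was 0.22 ± 0.04 (SE, adjusted p = 0.0716), and flipping the signs of the 8 culture differences gave an exact two-sided p of 0.00781, the smallest that 8 cultures allow. This exact p is unadjusted and comes from the same differences as the fit. Its fold stayed below 1.2, so that it could not be called at any p. DESeq2 gave Wls an adjusted p of 1.81e-04, limma-voom 0.0298, and edgeR with genes removed only at 0 counts 2.04e-04, while the range over fits that left out 1 library was 0.00781 to 0.332. The interaction of Li and genotype for Wls was 0.01 ± 0.08 (SE, adjusted p = 0.999) and was not called.

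The genes called between genotypes were not called under Li, and their values are set beside those above, with which they share all libraries. Sfrp1 was higher in 7 of 8 cultures, at 0.26 ± 0.06 (SE, adjusted p = 0.117), with WT culture 1 as the exception. Its adjusted p was 0.00903 in DESeq2, 4.29e-04 with genes removed only at 0 counts and 0.0198 to 0.383 over fits without 1 library. Fzd2 was higher in 7 of 8 at 0.17 ± 0.05 (SE, adjusted p = 0.175), Fzd7 in 8 of 8 at 0.13 ± 0.05 (SE, adjusted p = 0.242) and Fzd6 in 7 of 8 at 0.16 ± 0.07 (SE, adjusted p = 0.291). Tcf7l2, Rspo3 and Lgr5 were higher in 4, 5 and 5 of 8 cultures. Tcf7 was at 0.32 ± 0.10 (SE, adjusted p = 0.175), higher in all 4 WT cultures and in 2 of 4 KO cultures, and ranged from -0.08 to 1.01. Of the 10 Frizzled genes 9 were above 0 under Li, with a median of 0.13, and of the 7 genes of the R-spondin axis 7 were, with a median of 0.06. In the R-spondin axis 0 genes had an unadjusted p under 0.05. By culture, its genes were higher in 2 of 8 (Znrf3) to 5 of 8. Wnt10b, a ligand known for its part in bone formation, ran the other way, at -0.88 ± 0.32 (SE, adjusted p = 0.234). It was at 0.674, 0.603, 1.05 and 1.12 CPM in WTVeh and 0.342, 0.0554, 0.664 and 0.81 CPM in WTLi. In KOVeh it was at 0.281, 0.539, 0.588 and 0.796 CPM and in KOLi at 0.377, 0, 0.169 and 0.64 CPM, and its libraries held 0 to 39 reads of it. It was lower with Li in 7 of 8 cultures, with an exact sign-flip p of 0.0234. That p is unadjusted, and Wnt10b was named for its small p in these same differences. In culture 2 of WT its reads went from 13 to 1, and in the culture labelled KO 2 from 12 to 0.

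**Figure D4:**
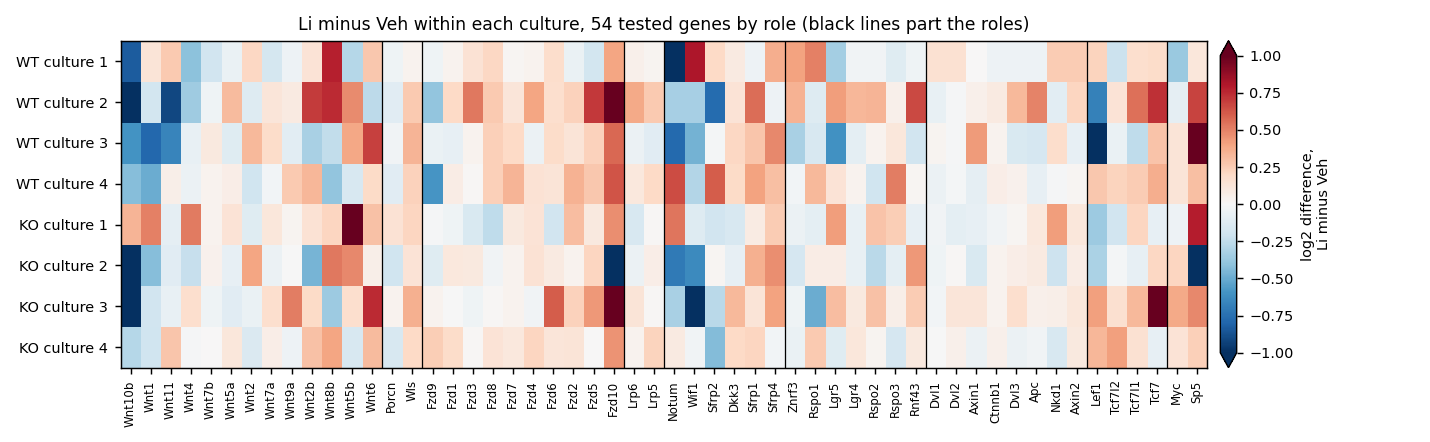
Log2 difference between the Li and the Veh library of each of 8 cultures (lines) for the 54 tested genes (columns, by role), with colours clipped at -1 and 1. Wls and Fzd7 are above 0 in all 8 cultures, and low genes such as Wnt10b, Notum and Lef1 take the deepest colours.

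Feedback genes of beta-catenin were examined under Li for themselves, since Li inhibits GSK3. The dose was 0.1 mmol/l, which the study's methods describe as low, and whether it inhibited GSK3 in these cultures was not tested. Axin2 was at 26.7, 22.8, 24.5 and 28.7 CPM in WTVeh against 31.8, 26.5, 23.1 and 29.2 CPM in WTLi, and at 21.1, 26.5, 20.4 and 31.9 CPM in KOVeh against 22.8, 28, 22 and 34.2 CPM in KOLi. It was higher in 7 of 8 cultures, WT culture 3 being the exception, but only by 0.10 ± 0.05 (SE, adjusted p = 0.334), with an exact sign-flip p of 0.0312. That p is unadjusted and comes from 1 of 88 exact tests. The sign-flip test also gave 0.0312 for Tcf7. For Sp5, Rnf43, Notum, Lef1, Nkd1 and Znrf3 it gave 0.188 (Sp5) to 0.953 (Znrf3). Sp5 was above 0 in 7 of 8 cultures at 0.30 ± 0.23 (SE, adjusted p = 0.591), with differences from -1.07 to 1.19 at a level of at most 1.28 CPM. The Li libraries of Sp5 were at 1.22, 0.941, 0.387 and 0.94 CPM in WTLi and 0.629, 0.404, 0.716 and 1.28 CPM in KOLi. Nkd1 was at 7.56, 6.37, 4.93 and 7.19 CPM in WTLi and 3.90, 4.90, 4.30 and 6.86 CPM in KOLi. Notum stayed under 1 CPM in both, at 0.293, 0.609, 0.387 and 0.681 CPM in WTLi and 0.377, 0.461, 0.295 and 0.817 CPM in KOLi. Rnf43 was at 1.27, 2.10, 1.44 and 1.39 CPM in WTLi and 1.64, 3.06, 1.48 and 1.56 CPM in KOLi, where the library labelled KO replicate 2 was the highest. Znrf3 was at 21.4, 15.8, 15.1 and 24.3 CPM in WTLi and 19.6, 19.7, 16.9 and 23.3 CPM in KOLi. In the fit of Li within cultures, Lef1 was at -0.05 ± 0.20 (SE, adjusted p = 0.937), Nkd1 at 0.03 ± 0.09 (SE, adjusted p = 0.897), Notum at -0.32 ± 0.27 (SE, adjusted p = 0.627) and Lgr5 at 0.04 ± 0.11 (SE, adjusted p = 0.900). Rnf43 was at 0.16 ± 0.14 (SE, adjusted p = 0.661) and Znrf3 at 0.004 ± 0.07 (SE, adjusted p = 0.988). Ctnnb1 mRNA was at 0.03 ± 0.03 (SE, adjusted p = 0.7). None of these passed the test, and the direction was shared by no more than 5 of 8 cultures for Lef1, Nkd1, Lgr5 and Rnf43.

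Within single genotypes, 0 genes of the 54 were called between KOLi and KOVeh or between WTLi and WTVeh, and 0% of all genes were called. In this model, which takes no account of the culture that a library came from, 0 of the 54 had an unadjusted p under 0.05. Over all genes these were 225 (1.52%) in KO and 217 (1.47%) in WT, so that the 0 is near the share of all genes. With the culture as a block there were 3 of 54 in KO, against 966 of all genes, and 11 of 54 in WT, against 1449, with 0 called. The medians of the 54 genes were 0.07 in KO and 0.09 in WT. No gene was called for a Li effect that differed between genotypes (0% of all genes), and the smallest adjusted p among the 54 was 0.999. At an unadjusted p under 0.05 stood Fzd9 at 0.33, Wnt4 at 0.33 and Fzd8 at -0.26, 3 of 54 (5.56%) against 2.85% of all genes.

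Several marker lists had a median under Li of the opposite sign to that between genotypes. Neuronal markers were below 0 for 8 of 8 genes with a median of -0.10, and their sum was lower with Li in 7 of 8 cultures. Progenitor markers were above 0 for 7 of 8 genes with a median of 0.20, and their sum was higher in 7 of 8 cultures. The exception was KO culture 1, with a log2 difference of -0.28 for the sum. Astrocyte markers had a median of 0.11, and the sum of the endothelial markers was higher in 8 of 8 cultures, with 5 of its 8 genes under 1 CPM on average. No marker was called, and the part of these cell types in the Li differences of the Wnt genes was not tested.

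**Figure D5:**
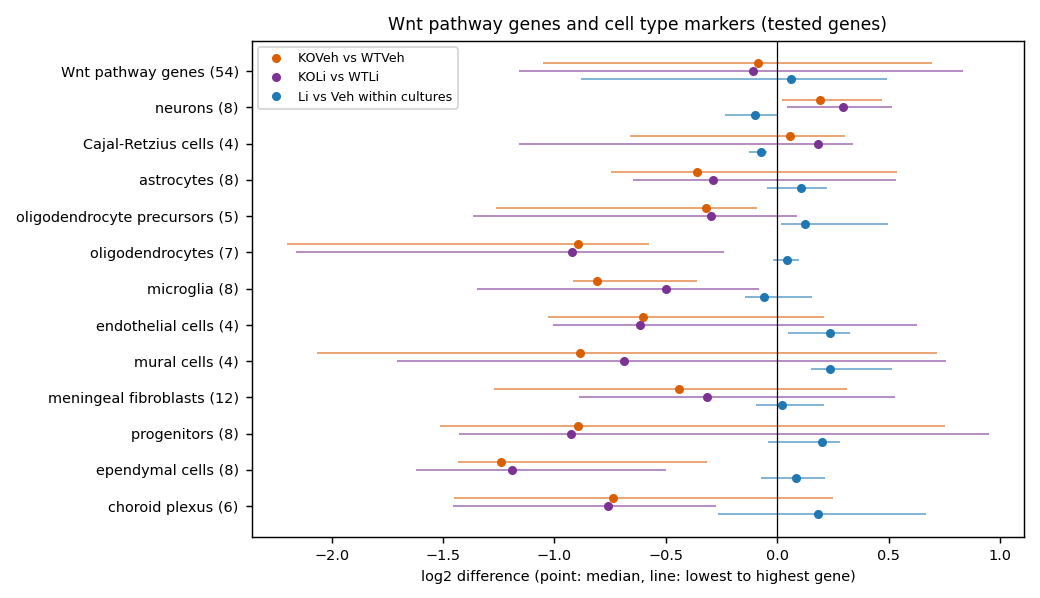
Median (point) and range (line) of the log2 differences of the tested Wnt pathway genes and of 12 cell type marker lists, in the 2 genotype comparisons and under Li, with the number of tested genes in brackets. The Wnt genes have medians of -0.09, -0.11 and 0.06, and the median of neurons lies on the other side of 0 from that of progenitors in all 3 comparisons. The range of the progenitor markers crosses 0 in each.

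Lists of 94 further gene names of the pathway (surface and secreted proteins, destruction complex and cytoplasm, nucleus, planar cell polarity and other beta-catenin targets) gave 91 genes in the tables and 84 tested genes. In Veh 2 of 84 were called lower and 0 higher, against 3.42% and 2.08% of all genes, and in Li 2 lower and 1 higher, against 3.6% and 2.76%. These counts are no more than the share over all genes would give, and the values of the called genes are given as a description. Ptk7, a co-receptor in planar cell polarity, was lower in both, at -0.44 ± 0.07 (SE, adjusted p = 0.00296) in Veh and -0.43 ± 0.07 (SE, adjusted p = 0.00311) in Li. Fuz, an effector of planar cell polarity and of cilia, was lower in Veh at -0.45 ± 0.10 (SE, adjusted p = 0.00823). Ccdc88c, which binds Dishevelled, was lower in Li at -0.58 ± 0.12 (SE, adjusted p = 0.00749). Frzb, a secreted antagonist of the Sfrp family that the choice by gene name left out, was higher in Li at 0.52 ± 0.09 (SE, adjusted p = 0.00338). The 20 genes of the destruction complex and cytoplasm, with both GSK3 genes and casein kinases among them, were above 0 for 19 of 20 in Veh with a median of 0.15, and 0 were called. The 21 tested targets outside the feedback genes had a median of -0.26 in Veh and of 0.08 under Li, with 0 called. Under Li 0 of the 84 genes were called, 51 were above 0 and the median was 0.02.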

How the data were processed

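RNA of 16 dishes of hippocampal cells was measured by bulk sequencing. The authors deposited raw counts per gene for 54532 genes, made with HISAT2 2.0.5 and featureCounts 1.5.0-p3 on GRCm38.p6 according to the submitters' processing notes. No source used here gives the strand setting, so reads of overlapping antisense genes cannot be separated. The deposited gene length, one of the other columns per the file headers, gave RPKM. Genes were joined by identifier, since 14 names differed between tables.

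The analysis started from 33134 genes, after biotypes such as pseudogenes were dropped as in the study. Counts were filtered at 15 counts, at the median library size, in a proportion of 0.25 of libraries, scaled by TMM and fitted by the quasi-likelihood test of edgeR 4.0.16 (R 4.3.3), with group and replicate number for genotype and with culture and Li for Li. P-values were Benjamini-Hochberg adjusted over 14783 genes. Called genes had an adjusted p under 0.01 and a fold above 1.2. Standard errors are the difference divided by the root of F. Single genes were also tested by exact permutation, in 88 tests of 22 genes. The fits were tested on simulated data. Alternatives used limma 3.58.1 and DESeq2 1.42.0, other filters and scalings, and subsets of libraries.

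The genes and lists were chosen with earlier results of these data known. Genes with values in every library were, by rule, those called, the 6 smallest p for genotype in Veh and for Li, the 5 highest RPKM, 8 feedback genes and Ctnnb1; other genes were named after their values were seen. Deviations from the group means of libraries with 1 replicate number had correlations of 0.590 to 0.859 for WT, 0.411 to 0.889 for KO, 0.224 to 0.557 across genotypes in Veh and 0.161 to 0.5 in Li. Between WTVeh and KOLi they ran from -0.0386 to 0.499. The same number was the best match for 3 of 4 pairs across genotypes in Veh and 2 of 4 in Li. That the number marks an experimental batch is an assumption that the labels do not settle. The counts of replicates 1 to 3 were deposited apart from those of replicate 4, and these sets are called sequencing batches 1 and 2. P-values measure the spread between these libraries.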

Additional observations from a re-analysis of the deposited data

Results flagged for a closer look

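In the 22 genes whose values were examined library by library, 88 groups of 4 were checked for a library far from the other 3, and 6 stood apart by Dixon's criterion, which chance meets in about 1 of 20 groups. WT replicate 3 was low for Fzd6, at 13.6 CPM in WTVeh against 19.4 to 19.9 in the others, and at 15.5 CPM in WTLi against 21.6 to 22.4. WTLi replicate 4 was high for Fzd7, at 47.7 CPM against 24.4 to 28.3. The library labelled KOLi replicate 2 was high for Rnf43, at 3.06 CPM against 1.48 to 1.64. WTVeh replicate 3 was high for Apc, at 730.1 CPM against 413 to 458, and the library labelled KOVeh replicate 2 for Ctnnb1, at 733 CPM against 614 to 630.5.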

How the results depend on the processing

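The count of called genes in KOVeh against WTVeh (5 of 54) became 10 with DESeq2, 15 at an adjusted p under 0.05 with no minimum fold, 11 with replicates 1, 3 and 4 only, and 3 in limma-voom when culture entered as a random term. It became 0 with sequencing batch 1 only, with the sequencing batch in place of the replicate block, with no replicate block, and with the compared groups alone. In KOLi against WTLi (6 of 54) the counts were 14, 19 and 12 for the first 3 of these, and 0 for the same 4; the random term gave 6. Over all genes the counts moved as well. In Veh, against 506 lower and 307 higher, they were 1115 and 776 with DESeq2, 1696 and 1177 at an adjusted p under 0.05, 1119 and 528 with replicates 1, 3 and 4, and 318 and 195 with the random term. In Li, against 532 and 408, they were 1199 and 848, 1861 and 1361, 1117 and 641, and 375 and 289. Leaving out 1 library gave 0 to 8 calls in Veh and 0 to 9 in Li. Counts over all genes are not given for these fits, nor for the settings with 0 calls apart from that with no replicate block. A lower count there is not by itself a result about the 54 genes. No called gene changed direction in any fit. Without TMM factors the median of all genes moved to -0.05 in both comparisons, the call of Rspo3 was lost in Veh (adjusted p = 0.014) and that of Lgr5 in Li (adjusted p = 0.0104). The counts among the 54 genes for Li, within cultures (lowest 0, highest 0) or as an interaction (0 to 0), were 0 in every fit.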
